A study of Homo sapiens with 12 samples.

Results

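The genes described here are 36 genes of the stress response that joins amino acid supply to protein folding, taken by symbol from the 55771 gene rows of the deposited table. Each symbol matched exactly 1 row. They fall into an arm of 22 genes that encode the transcription factor ATF4 and its targets (the ATF4 arm), and an arm of 14 genes that encode chaperones, folding enzymes and degradation factors of the endoplasmic reticulum (ER) together with XBP1 (the ER arm). All 36 passed the filter on low values, a normalized count of 10 or more in 4 or more of the 12 libraries.

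RNA was measured in KELLY, an established human neuroblastoma cell line, in 3 groups of 4 libraries. The groups were given a control oligonucleotide, BPS1 or BPS2, each a morpholino (an uncharged antisense molecule) held on a DNA leash and packed with lipid. Cells of all groups were plated for 24 h in 10% serum, moved to 4% serum and transfected with 50 nM of these complexes for 48 h. The series text gives the purpose as following the transcriptome once NEAT1_2, the long transcript that builds paraspeckles, has been raised. The BPS2 columns were assigned through the sample titles, since the samples' description field names them KPAS, and BPS1 replicate 3 is headed BSP1 in the table. Whether replicates were grown as separate cultures is not stated, so each p-value reflects only the spread among these 12 libraries, and that spread may be technical. Every value comes from 1 cell line and 1 time point. The sequences of the oligonucleotides were not used here.

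ATF4 is the effector of the integrated stress response. Kinases that sense stress (PERK in the ER, GCN2 for amino acid shortage, HRI for mitochondrial and haem stress, PKR for double-stranded RNA) phosphorylate the initiation factor eIF2 alpha, which lowers bulk translation and favours translation of the ATF4 mRNA. ATF4 then switches on genes for amino acid transport and synthesis, for redox balance and, with DDIT3, for cell death. The unfolded protein response of the ER uses PERK and also IRE1, which splices the XBP1 mRNA, and ATF6, which is cut in the Golgi. XBP1 and ATF6 switch on ER chaperones and the machinery that retrieves misfolded proteins for degradation. The table holds 1 value per gene, so neither splicing of XBP1 nor translation of ATF4 is visible in it.

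Both arms carry short sequence elements near their start sites, shown here because they are the letters by which the arms are classically told apart. RefSeq promoters (250 bases before to 50 after the start, build GRCh38.p14) were found for 18 of the 22 ATF4 arm genes and all 14 ER arm genes. SLC7A11 and PSPH are among those with no entry. The ER stress element, read by ATF6 with NF-Y, was searched on both strands as CCAAT, 9 bases of any kind and CCACG. It occurred in 6 of 14 ER arm genes and in 0 of 18 ATF4 arm genes, against 0.0769% of all 35116 promoters and 0.0916% of the 27305 genes they belong to. The 6 genes carried these copies, with the fixed letters in capitals:
HSPA5: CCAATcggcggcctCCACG
XBP1: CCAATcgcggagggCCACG
HSP90B1: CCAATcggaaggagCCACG
HSP90B1, second copy: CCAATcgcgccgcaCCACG
CALR: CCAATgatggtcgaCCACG
PDIA6: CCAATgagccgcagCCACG
CRELD2: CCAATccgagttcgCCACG

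A relative of that element, ERSE-II (ATTGG, 1 base and CCACG), was found in HERPUD1, SDF2L1 and, as 2 copies, HYOU1, so in 3 of 14 ER arm genes against 0.0541% of all promoters and 0.0696% of genes. The unfolded protein response element TGACGTGG was found in HYOU1 alone among the 32 genes with a promoter entry, and in 0.729% of all promoters (0.927% of genes). Its bases in HYOU1 overlap 1 of the ERSE-II copies. The element read by ATF4 with a C/EBP partner (TGATG, 1 base and AA) was found in ATF3, ASNS, SLC3A2, CHAC1 and CEBPG, so in 5 of 18 ATF4 arm genes, and in HERPUD1 of the ER arm, against 3.62% of all promoters and 4.46% of genes. The cyclic AMP element TGACGTCA was found in PPP1R15A and in 1.85% of all promoters (2.25% of genes). A match is a description of letters in this window and not a measured binding site. Sites outside this window, farther upstream or in introns, were not searched.

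The promoter of HSPA5 and that of CHAC1 are given whole, as 1 gene of each arm that carries an element and passed the test with BPS2 against control. The HSPA5 window is chr9:125241294-125241593, minus strand, with the element 66 bases before the start in capitals.
HSPA5: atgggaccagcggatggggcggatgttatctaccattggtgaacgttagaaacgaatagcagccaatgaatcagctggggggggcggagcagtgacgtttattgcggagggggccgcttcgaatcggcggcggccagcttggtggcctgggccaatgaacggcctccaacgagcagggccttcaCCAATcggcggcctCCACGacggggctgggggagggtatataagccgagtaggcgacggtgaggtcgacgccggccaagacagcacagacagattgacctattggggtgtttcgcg
The CHAC1 window is chr15:40953221-40953520, plus strand, with the ATF4 and C/EBP element in capitals. It lies on the opposite strand, so it reads here as its reverse complement, 209 bases before the start.
CHAC1: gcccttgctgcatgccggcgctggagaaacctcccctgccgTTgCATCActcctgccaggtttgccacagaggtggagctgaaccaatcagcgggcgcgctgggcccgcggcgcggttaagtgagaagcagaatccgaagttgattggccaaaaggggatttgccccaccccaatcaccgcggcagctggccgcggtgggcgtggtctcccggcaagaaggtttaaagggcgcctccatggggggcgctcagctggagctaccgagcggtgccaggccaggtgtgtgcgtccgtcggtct

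The libraries were of similar depth, with 29.6 to 33.3 M normalized counts each, which is an estimated 29.1 to 31.8 M reads. Control replicate 1 and BPS1 replicate 4 stood apart. Taking each gene's median over the 12 libraries as its reference, the deviations had an SD across genes of 0.471 and 0.594 there and of 0.377 to 0.425 elsewhere. Those deviations also rose most with transcript GC content (Spearman's rho across genes, which are not independent, of 0.23 and 0.35), although rho was also 0.17, 0.21 and 0.12 in BPS2 replicates 2, 3 and 4. The 2 libraries touch the genes described here directly. Control replicate 1 had the highest control value for 13 of 22 ATF4 arm and 9 of 14 ER arm genes, and BPS1 replicate 4 the highest BPS1 value for 18 of 22 and 10 of 14, against 35.0% and 40.4% of all genes tested. Results are therefore given with all libraries and, further on, without these 2. The 10 adrenergic neuroblastoma markers reported here were expressed, among them MYCN, and 0 of 4 blood markers reached the filter. Of the markers of mesenchymal neuroblastoma, fibroblasts or Schwann-like cells 8 of 9 reached it, led by PDGFRB and TWIST1 at control means of 2553 and 1857, as did 1 of 3 epithelial markers and 1 of 5 markers of secretory cells with a high ER load. The summed adrenergic marker level was 254049 to 302930 in control, 198202 to 252272 in BPS1 and 229625 to 244111 in BPS2 libraries, and the summed mesenchymal level 6347 to 7236, 5767 to 6433 and 5916 to 6678. Their part in the results was not tested.

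In control cells the ER arm was the more abundant per length of transcript. The median level was 1680 normalized counts per kb in the ER arm and 440 in the ATF4 arm, beside 393 over protein-coding genes tested (mean transcript length in GENCODE release 29). HSP90B1, the ER member of the HSP90 family, led with 20206 ± 2306 per kb (SD, n = 4). CALR, the lectin chaperone calreticulin, was next with 18689 ± 3227, and these ranges overlap. ATF4 mRNA stood at 6517 ± 867 per kb. PDIA6, PHGDH and MTHFD2 followed at 6136 ± 467, 6082 ± 628 and 5687 ± 254, and these 4 ranges also overlap. All genes were read in the same 4 control libraries, so an SD between libraries is no test of their order. The enzymes of serine and one-carbon metabolism were thus well expressed without treatment, whereas the stress effectors DDIT3, CHAC1 and NUPR1 stood at 194, 76.8 and 8.43 per kb. HYOU1 has no length in that release and was not ranked. The length is an unweighted mean over all annotated transcripts, of 1188 bases for HSP90B1, 913 for CALR and 3908 for HSPA5. Their control means were 24002, 17063 and 16721 normalized counts, and HSPA5 stood at 4279 per kb. The order per kb thus depends on these lengths, whose error the SD leaves out.

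BPS1 against control moved few of the 36 genes and in both directions. In the ATF4 arm ATF3 and SLC7A5 rose and SLC7A11 and SESN2 fell, so 2 and 2 of 22, while 0 of the 14 ER arm genes passed limma's test at an adjusted p under 0.05 in either direction (1 had an unadjusted p under 0.05). Over all 20454 genes tested 4.29% were called higher and 4.32% lower. The median log2 fold change was 0.00 in the ATF4 arm and 0.07 in the ER arm, beside -0.000 over all genes. The groups did not overlap for 5 ATF4 arm genes and 0 ER arm genes, against 14.3% of all genes. With so few calls in either direction, neither count is read as a shift of an arm.

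With BPS2, ATF3 and CHAC1 of the ATF4 arm and HSPA5 of the ER arm rose against control, which is 2 of 22 and 1 of 14, and none of the 36 fell. The ATF3 call held in 12 of 12 single omissions of a library, that of CHAC1 was lost in 10 and that of HSPA5 in 7. Omission of a BPS1 library leaves these fold changes unmoved. Among omissions of control or BPS2 libraries, the CHAC1 call held in none and that of HSPA5 only without control replicate 1. Over all genes 0.821% were called higher and 0.386% lower. The median log2 fold change was 0.22 in the ATF4 arm, with 18 of 22 estimates above 0. It was 0.19 in the ER arm, with 13 of 14 above 0. Over all genes it was 0.002, with 50.6% of estimates above 0. The groups did not overlap for 7 ATF4 arm genes (ATF3, DDIT3, DDIT4, CHAC1, SLC7A5, CEBPG and PPP1R15A) and 3 ER arm genes (XBP1, HSPA5 and HERPUD1), in every case with BPS2 higher, against 9.65% of all genes in either direction. Both comparisons use the same control libraries. In bulk RNA, a change in the share of cells with a transcript and a change in its level per cell cannot be told apart.

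**Figure D1:**
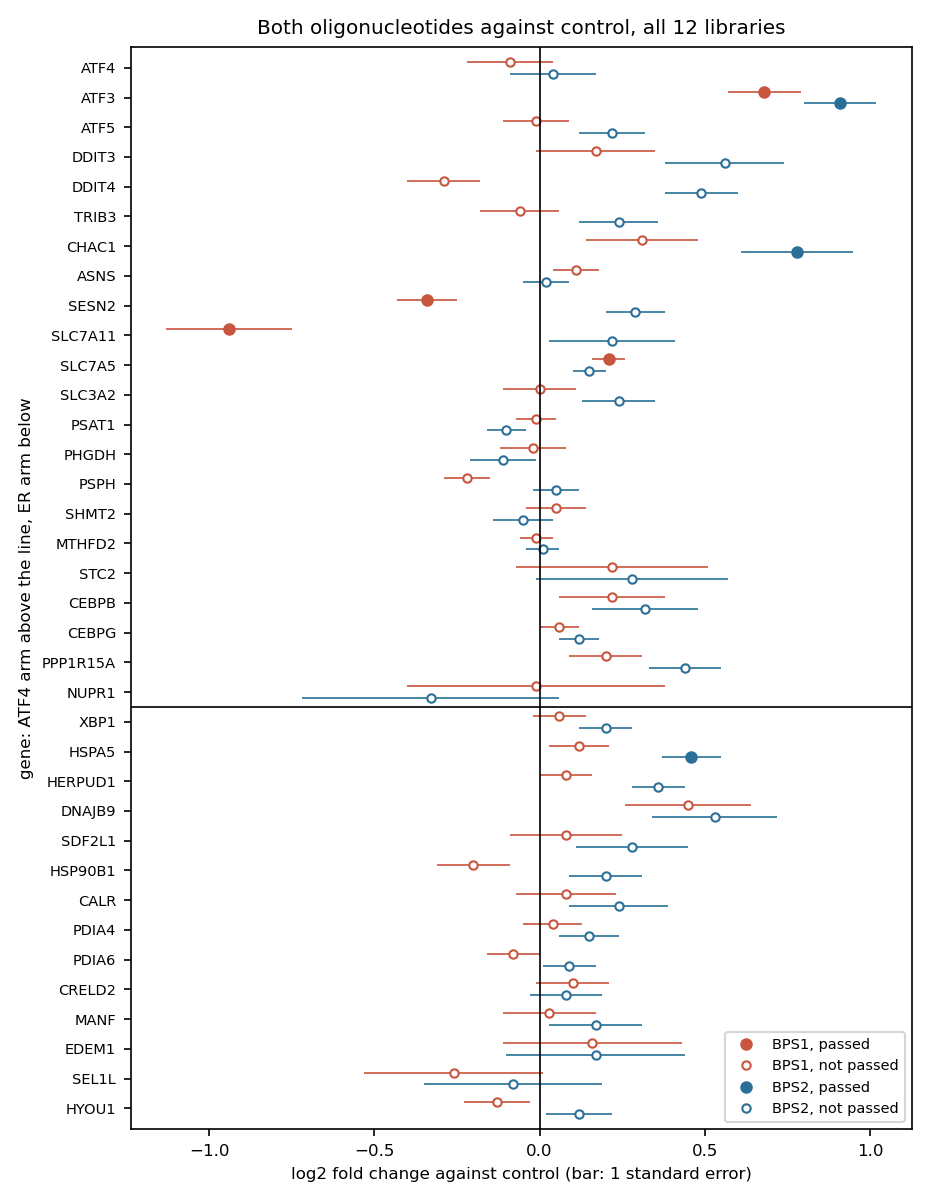
Log2 fold change (x axis) of each of the 36 genes (y axis) in BPS1 and BPS2 against control, on the log2(value + 1) scale. Bars are 1 standard error of the limma fit on all 12 libraries, and filled points passed at an adjusted p under 0.05. BPS2 estimates lie above 0 for 18 of 22 ATF4 arm and 13 of 14 ER arm genes (50.6% of all genes). SLC7A11 and SESN2 are to the left with BPS1.

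Among the transcription factors, ATF4 mRNA itself was not called in any comparison with all libraries. Its normalized counts were 13797, 11462, 11017 and 10195 in control, 9564, 9848, 10073 and 14428 in BPS1 and 10894, 12270, 12432 and 12070 in BPS2. All 3 groups overlapped, and the extremes were control replicate 1 and BPS1 replicate 4. The log2 fold change was -0.09 (95% interval -0.37 to 0.18) for BPS1 and 0.04 (-0.23 to 0.32) for BPS2. Without those extreme libraries it was -0.15 (-0.27 to -0.02) for BPS1 and 0.13 (0.01 to 0.25) for BPS2. Neither passed then (limma adjusted p of 0.115 and 0.146). ATF4 has 4 named pseudogene copies, which can share reads with it.

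ATF3 (ENSG00000162772, chr1:212565334-212620777, with positions here and in what follows from GENCODE release 29 on GRCh38), a stress-induced relative of ATF4 that mostly represses, had the smallest p of the 36 genes in both comparisons with control. Control libraries held 383, 469, 375 and 384, BPS1 libraries 584, 612, 743 and 648, and BPS2 libraries 701, 811, 815 and 689. Every treated library exceeded every control library, and the BPS1 and BPS2 groups overlapped. ATF3 rose 1.60-fold with BPS1 (log2 0.68 ± 0.11 SE, limma adjusted p = 0.00172) and 1.87-fold with BPS2 (log2 0.91 ± 0.11, adjusted p = 0.00108). Between the oligonucleotides the difference was 0.22 (95% interval -0.01 to 0.45, adjusted p = 0.306). These calls held after the omission of any 1 library.

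DDIT3, also called CHOP, promotes death under prolonged stress. It read 217, 167, 180 and 132 in control, 160, 187, 181 and 253 in BPS1 and 223, 220, 274 and 301 in BPS2. All BPS2 libraries lay above all control libraries, but the log2 fold change of 0.56 ± 0.18 did not pass (adjusted p = 0.197). Reads of DDIT3 may be shared with MARS and MBD6, which overlap it on the opposite strand, since the sources used here do not state whether the counting used strand. ATF5, CEBPB and CEBPG, further leucine zipper factors, had BPS2 estimates of 0.22, 0.32 and 0.12 (adjusted p from 0.436 to 0.481), and for CEBPG the BPS2 range of 2345 to 2432 lay above the control range of 2089 to 2282. NUPR1, a small stress-induced chromatin protein, was near the detection limit at 7.91 to 29.2 and gave wide intervals.

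A pair of brakes on growth signalling separated the oligonucleotides. DDIT4 (ENSG00000168209, chr10:72273920-72276036), an inhibitor of the kinase complex mTORC1, was at 1135, 981, 886 and 1127 in control, 833, 777, 782 and 994 in BPS1 and 1250, 1493, 1500 and 1530 in BPS2. BPS2 exceeded both other groups without overlap, and BPS1 overlapped control from below. Against control the BPS2 difference of 0.49 ± 0.11 missed the threshold (adjusted p = 0.0529) and that of BPS1 was -0.29 (adjusted p = 0.136), whereas BPS2 exceeded BPS1 by 0.77 ± 0.11 (adjusted p = 0.00158), a call that held in 12 of 12 single omissions. Omission of BPS1 replicate 4 brought DDIT4 past the threshold against control with both oligonucleotides, and that of BPS2 replicate 1 with BPS2.

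SESN2 (ENSG00000130766, chr1:28259527-28282491), or sestrin 2, a leucine sensor that also holds back mTORC1, showed a like order. Its values were 766, 656, 655 and 648 in control, 496, 502, 559 and 589 in BPS1 and 759, 840, 863 and 857 in BPS2. BPS1 lay wholly below both other groups, and BPS2 overlapped control only through control replicate 1. SESN2 fell by 0.34 on the log2 scale with BPS1 (SE 0.09, adjusted p = 0.0299) and was higher with BPS2 than with BPS1 by 0.63 ± 0.09 (adjusted p = 0.00148). The fall with BPS1 no longer passed without control replicate 1, 2 or 3 (adjusted p of 0.0686, 0.0594 and 0.0563) or without BPS1 replicate 1, 2 or 3 (0.0757, 0.0853 and 0.0531), whereas the difference between the oligonucleotides passed in 12 of 12 omissions.

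PPP1R15A, also called GADD34, brings a phosphatase to eIF2 alpha and so ends the response. It was at 701, 687, 629 and 639 in control, 665, 740, 705 and 962 in BPS1 and 851, 926, 961 and 867 in BPS2. BPS2 cleared control without overlap, and BPS1 replicate 4 alone among the BPS1 libraries reached the BPS2 range. The BPS2 difference of 0.44 ± 0.11 did not pass with all libraries (adjusted p = 0.0755). It passed without BPS1 replicate 4. TRIB3, a pseudokinase that binds ATF4, had estimates of -0.06 and 0.24 for BPS1 and BPS2 and did not pass.

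Of the genes that handle glutathione and cystine, CHAC1 passed with BPS2 against control and SLC7A11 with BPS1. CHAC1 (ENSG00000128965, chr15:40952962-40956519), an enzyme that degrades glutathione, read 101, 81.2, 125 and 117 in control, 123, 106, 127 and 170 in BPS1 and 158, 168, 199 and 198 in BPS2. All BPS2 libraries were above control, and BPS1 lay between with overlap on both sides. CHAC1 rose 1.72-fold with BPS2 (log2 0.78 ± 0.17, adjusted p = 0.0438). The call is close to the threshold. It passed only in the omissions of BPS1 replicate 2 and BPS1 replicate 4, libraries that are not in this comparison. In the other 10 the adjusted p was 0.0567 to 0.149 while the log2 fold change stayed at 0.66 to 0.86.

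SLC7A11 (ENSG00000151012, chr4:138164097-138242349), the cystine and glutamate exchanger xCT, had the largest fall among the 36 genes. Control libraries held 505, 741, 806 and 748, BPS1 libraries 434, 384, 420 and 234, and BPS2 libraries 828, 782, 824 and 781. The BPS1 libraries lay below both other groups, with the low ends of control and BPS1 set by control replicate 1 and BPS1 replicate 4, and BPS2 overlapped control. With BPS1 it stood at 0.520 of control (log2 -0.94 ± 0.19, adjusted p = 0.00761), and BPS2 exceeded BPS1 2.24-fold (log2 1.16 ± 0.19, adjusted p = 0.00338). Both calls held in 12 of 12 single omissions. An antisense gene, SLC7A11-AS1, overlaps it, so its reads cannot be told apart if strand was not used.

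Of the other amino acid transport genes of the ATF4 arm, SLC7A5 passed with BPS1 and SLC3A2 in neither comparison with control. SLC7A5 (ENSG00000103257, chr16:87830023-87869488), the LAT1 carrier of large neutral amino acids, was at 7432, 7128, 7171 and 7207 in control, 8026, 8568, 8177 and 8613 in BPS1 and 7900, 8056, 8162 and 8015 in BPS2. Both treated groups lay above control without overlap, and they overlapped each other. It rose 1.15-fold with BPS1 (log2 0.21 ± 0.05, adjusted p = 0.0223), and with BPS2 the estimate was 0.15 (adjusted p = 0.222). The BPS1 call was lost without control replicate 2, 3 or 4 (adjusted p of 0.0702, 0.0640 and 0.0521) or BPS1 replicate 2 (0.0673). SLC7A5 has the named pseudogene copies SLC7A5P1 and SLC7A5P2, which can share reads with it. SLC3A2, the heavy chain that partners SLC7A5 and SLC7A11, had estimates of 0.00 and 0.24.

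Serine is made from a glycolytic intermediate by PHGDH, PSAT1 and PSPH in turn, and of these the last differed between the oligonucleotides. PSPH (ENSG00000146733, chr7:56011051-56051604) was at 1182, 1122, 1221 and 1180 in control, 1050, 982, 957 and 1052 in BPS1 and 1168, 1246, 1228 and 1230 in BPS2. All BPS1 libraries lay below all libraries of the other groups, which overlapped each other. BPS2 exceeded BPS1 by 0.27 ± 0.07 (adjusted p = 0.0354), and the BPS1 difference from control of -0.22 missed the threshold (adjusted p = 0.0556) and passed it without BPS1 replicate 4. The call between the oligonucleotides held in the omissions of control replicate 1 and BPS1 replicate 4 and was lost in the other 10, with adjusted p up to 0.118. The pseudogene PSPHP1 makes its reads uncertain. PHGDH, PSAT1, the mitochondrial one-carbon enzymes SHMT2 and MTHFD2 and the asparagine synthetase ASNS had estimates between -0.11 and 0.11 in both comparisons with control. The 95% intervals of MTHFD2, -0.13 to 0.10 with BPS1 and -0.11 to 0.12 with BPS2, were the narrowest of these. MTHFD2 has 7 named pseudogene copies, and ASNS and PSAT1 have 4 each, which can share reads with them. AC006030.1 and SLC4A5 overlap MTHFD2 on the opposite strand. STC2, a secreted glycoprotein, varied from 62.0 to 170 and did not pass.

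**Figure D2:**
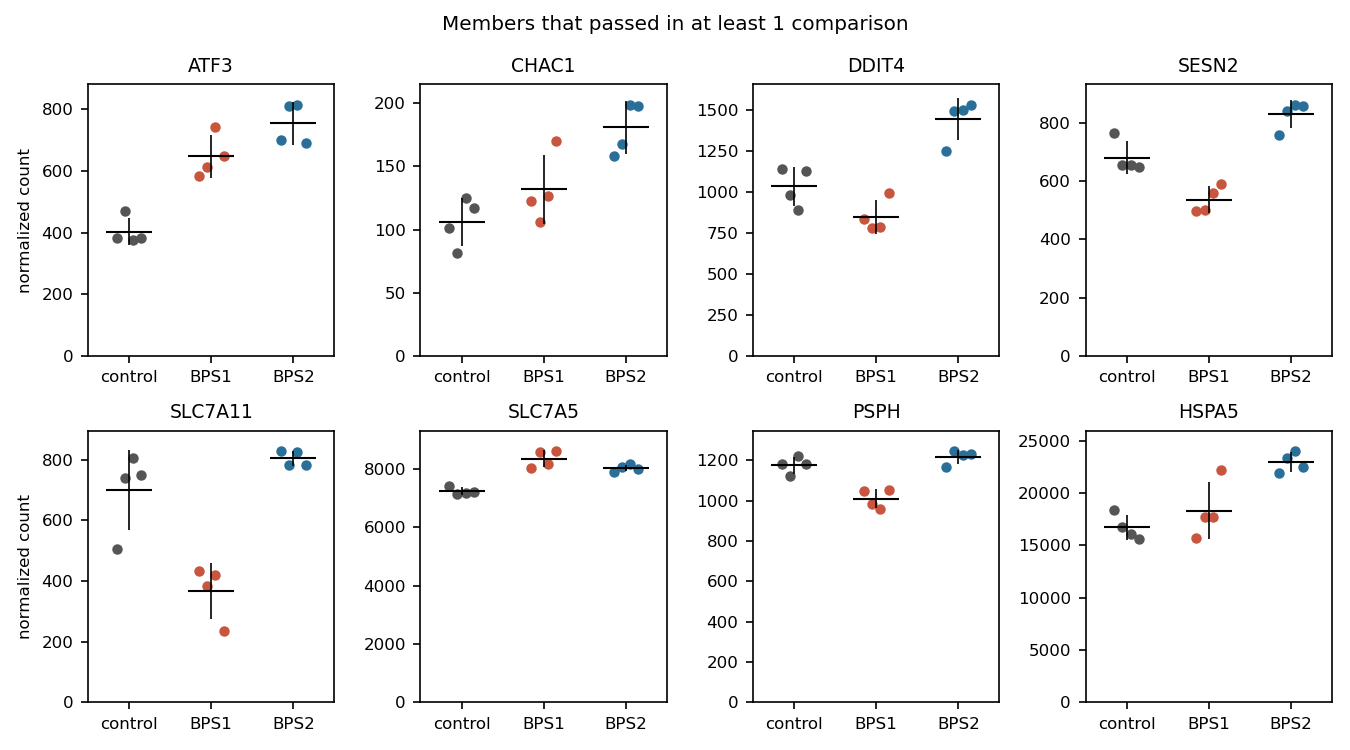
Normalized counts (y axis, from 0) of the 8 genes that passed in at least 1 of the 3 comparisons, by group (x axis). Points are libraries in replicate order from left to right, horizontal lines the group mean and vertical lines 1 SD. ATF3 is high in both treated groups, SLC7A11, SESN2 and PSPH are lowest in BPS1, and HSPA5 is highest in BPS2.

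With all libraries, 1 gene of the ER arm passed against control. HSPA5 (ENSG00000044574, chr9:125234853-125241330), also called BiP, binds unfolded chains and keeps the stress sensors silent. It was at 18383, 16774, 16137 and 15590 in control, 15725, 17669, 17690 and 22178 in BPS1 and 21895, 23376, 24010 and 22507 in BPS2. All BPS2 libraries exceeded all control libraries, and only BPS1 replicate 4 reached the BPS2 range. HSPA5 rose 1.37-fold with BPS2 (log2 0.46 ± 0.09, adjusted p = 0.0285), and with BPS1 the estimate was 0.12 (95% interval -0.08 to 0.32, adjusted p = 0.478). The difference between the oligonucleotides, 0.34, missed the threshold (adjusted p = 0.0630) and passed it without BPS1 replicate 4. The BPS2 call was lost without control replicate 2, 3 or 4 (adjusted p of 0.0909, 0.102 and 0.0937) or without BPS2 replicate 1, 2, 3 or 4 (0.0620, 0.0974, 0.111 and 0.0814), while the log2 fold change kept between 0.43 and 0.50.

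XBP1, the factor that IRE1 activates, read 2732, 2692, 2655 and 2460 in control, 2434, 2674, 2746 and 3194 in BPS1 and 2863, 3073, 3027 and 3121 in BPS2. BPS2 lay above control without overlap, and BPS1 spanned both. The estimates of 0.06 for BPS1 and 0.20 ± 0.08 for BPS2 did not pass (adjusted p of 0.711 and 0.358).

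HERPUD1, a membrane factor that helps to bring misfolded proteins to the degradation machinery, was closest to the threshold. It was at 2117, 1990, 1779 and 1821 in control, 1829, 2016, 2150 and 2166 in BPS1 and 2368, 2618, 2581 and 2341 in BPS2. Every BPS2 library lay above every library of the other groups. The BPS2 estimate was 0.36 ± 0.08 (adjusted p = 0.0506), and it passed without control replicate 1, BPS1 replicate 1 or BPS1 replicate 4. AC012181.2 and AC012181.1 overlap HERPUD1 on the same strand, so its reads may be shared with them. EDEM1 and SEL1L, which act in the same removal pathway, behaved otherwise. EDEM1 was at 397 and SEL1L at 1110 in control replicate 1, against 680 to 1117 and 1847 to 2420 in the other control libraries, and SEL1L was at 890 in BPS1 replicate 4 against 1736 to 1962. Neither passed in any comparison.

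DNAJB9, a J-domain partner of HSPA5 and a classical IRE1-XBP1 target, was uneven within groups. It read 310, 282, 275 and 371 in control, 415, 333, 492 and 464 in BPS1 and 518, 565, 297 and 449 in BPS2. Both treated groups overlapped control, through control replicate 4, BPS1 replicate 2 and BPS2 replicate 3. Its estimates of 0.45 ± 0.19 and 0.53 ± 0.19 were the largest of the ER arm and did not pass (adjusted p of 0.170 and 0.271). PNPLA8 and THAP5 overlap it on the opposite strand.

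HSP90B1, also called GRP94, was at 27931, 23562, 22884 and 21630 in control, 18550, 19289, 19932 and 26497 in BPS1 and 25614, 27267, 28234 and 28549 in BPS2. Control replicate 1 and BPS1 replicate 4 were each the highest of their group and reached the BPS2 range. With all libraries it did not pass, with estimates of -0.20 for BPS1, 0.20 for BPS2 and 0.39 between them (adjusted p of 0.314, 0.534 and 0.0637). Without BPS1 replicate 4 it passed as lower with BPS1 and as higher with BPS2 than with BPS1, and the latter also without control replicate 1. HYOU1, a nucleotide exchange factor of HSPA5, was at 3288, 3699, 3197 and 3084 in control, 3731, 2771, 2728 and 2982 in BPS1 and 3736, 3232, 3866 and 3540 in BPS2. Its groups overlapped, and its estimates of -0.13 and 0.12 did not pass.

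The other 6 ER arm genes are the lectin chaperone CALR, the disulfide isomerases PDIA4 and PDIA6, SDF2L1, CRELD2 and MANF. They had BPS1 estimates between -0.08 and 0.10 and BPS2 estimates between 0.08 and 0.28 and did not pass. In 5 of them, CRELD2 apart, control replicate 1 was the highest control library. In all 6 of them BPS1 replicate 4 was the highest BPS1 library. CALR, for example, was at 15298 to 16406 in the other BPS1 libraries and at 24707 in this one.

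**Figure D3:**
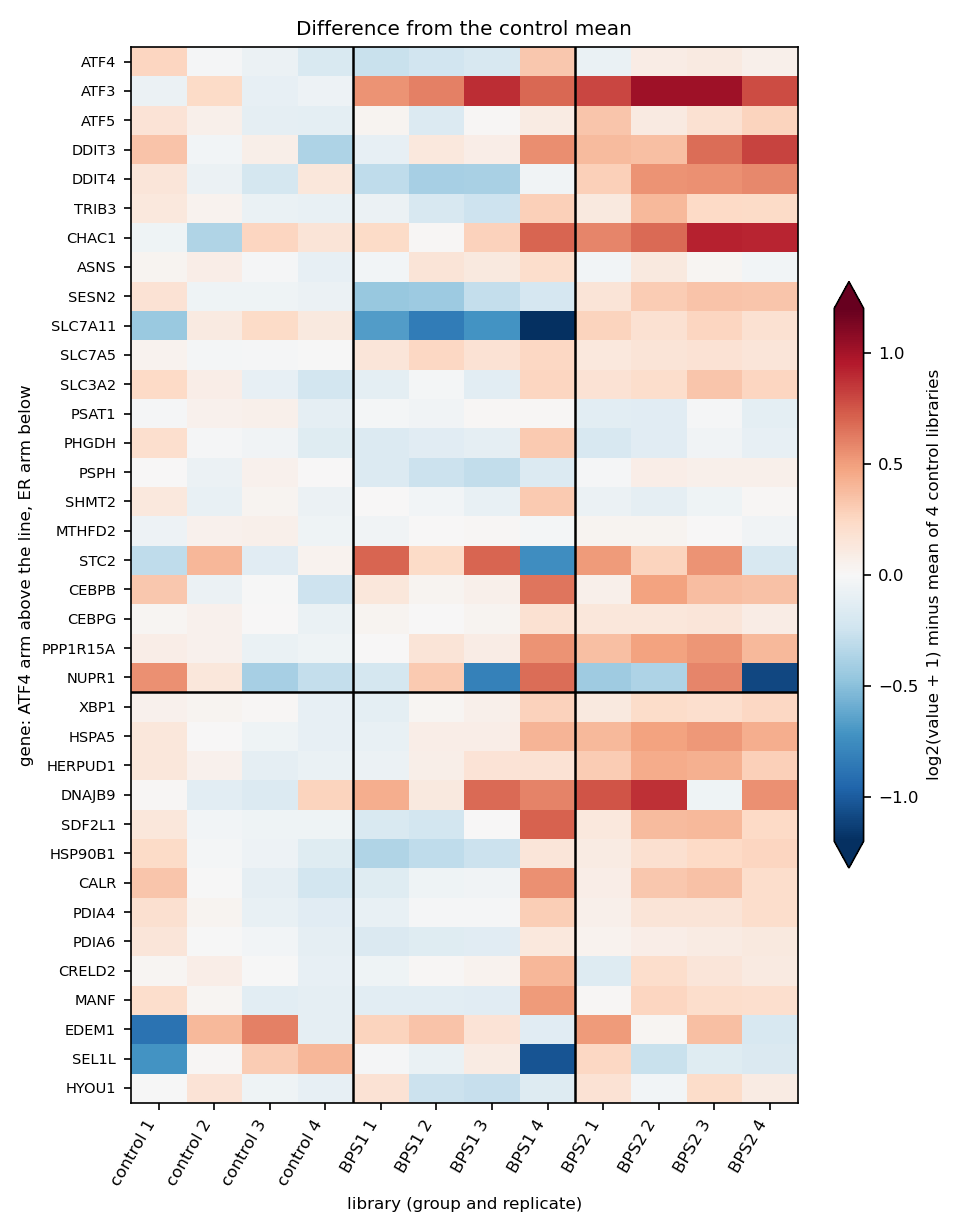
Difference of each library (x axis) from the mean of the 4 control libraries for each gene (y axis), as log2(value + 1), with colours clipped at the ends of the scale. BPS1 replicate 4 is higher than its group for 18 of 22 ATF4 arm and 10 of 14 ER arm genes, and SLC7A11 is low in all BPS1 libraries.

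Set directly against each other, the oligonucleotides differed in 4 genes of the ATF4 arm. DDIT4, SESN2, SLC7A11 and PSPH were higher with BPS2 than with BPS1, which is 4 of 22, and 0 were lower. Of all genes 2.30% were called higher and 1.63% lower. No ER arm gene passed with limma. In that arm 13 of 14 estimates were above 0, beside 49.6% over all genes. An unadjusted p under 0.05 was found for 5, which are not calls, and the share of all genes at that cut is not given here. The median difference was 0.18 in the ATF4 arm and 0.17 in the ER arm. The groups did not overlap for 5 ATF4 arm genes (ATF5 and the 4 that passed) and for HERPUD1, against 11.9% of all genes. The labels name no difference in structure between BPS1 and BPS2.

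Without control replicate 1 and BPS1 replicate 4, many more of the 36 genes passed with BPS2. In that fit of 10 libraries, 9 ATF4 arm and 9 ER arm genes were higher with BPS2 than in control, while 5.63% of all genes were called higher. The 2 libraries left out were the highest of their groups more often for the 36 genes than for all genes, as given above, so the omission is not neutral towards them, and the counts are not independent support. In the ATF4 arm the genes called were ATF3, DDIT3, DDIT4, CHAC1, SESN2, SLC7A5, SLC3A2, CEBPB and PPP1R15A. DDIT3 gave 0.67 ± 0.14 (adjusted p = 0.0166), CHAC1 0.76 ± 0.16 (0.0146) and PPP1R15A 0.47 ± 0.07 (0.00284). In the ER arm they were XBP1, HSPA5, HERPUD1, SDF2L1, HSP90B1, CALR, PDIA4, PDIA6 and MANF. HSPA5 gave 0.50 ± 0.05 (adjusted p = 2.58e-04), HERPUD1 0.41 ± 0.07 (0.00587) and CALR 0.35 ± 0.07 (0.0103). The serine and one-carbon genes PHGDH, PSAT1, PSPH, SHMT2 and MTHFD2 were not among the genes called, nor were ATF4, ASNS and SLC7A11. Of the ER arm, DNAJB9, CRELD2, HYOU1, EDEM1 and SEL1L were not called. EDEM1 and SEL1L had estimates below 0, of -0.12 and -0.32 (adjusted p of 0.721 and 0.118), beside 0.17 and -0.08 with all libraries.

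Against BPS1 the same 10 libraries gave 10 ATF4 arm and 9 ER arm genes that were higher with BPS2, beside 10.3% of all genes. HSP90B1 had the smallest p of the ER arm, 0.51 ± 0.04 (adjusted p = 4.20e-05). ATF4 mRNA was itself higher with BPS2 than with BPS1 in this fit, by 0.28 ± 0.05 (adjusted p = 0.00510). In all, 15 genes, 6 and 9 of the 2 arms, were higher with BPS2 against both other groups. In at least 1 comparison 22 passed, compared with 8 on all libraries. The share of all genes with such joint calls is not given here, so these counts are not read as particular to the arms. Calls over all genes in either direction also rose, from 247 to 1910 for BPS2 against control. They rose from 803 to 3499 for BPS2 against BPS1 and from 1760 to 2774 for BPS1 against control. For BPS1 against control the counts within the arms changed little. ATF3 and SLC7A5 rose, SESN2, SLC7A11 and PSPH fell, and HSP90B1 of the ER arm fell by 0.24 on the log2 scale (SE 0.05, adjusted p = 0.00756). Over all genes 6.34% were called higher and 7.22% lower.

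**Figure D4:**
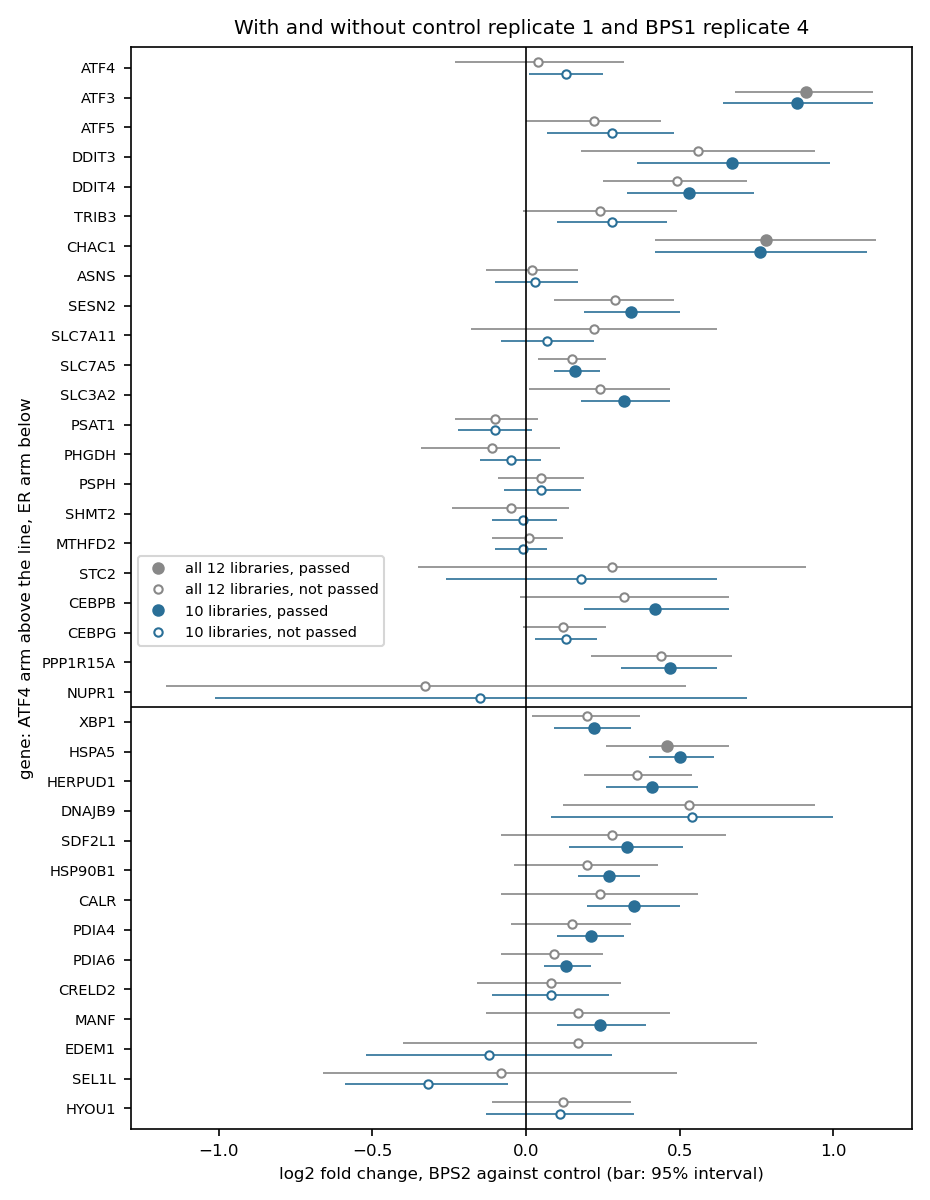
Log2 fold change of BPS2 against control (x axis) for each gene (y axis) from all 12 libraries and from the 10 that remain without control replicate 1 and BPS1 replicate 4. Bars are 95% intervals and filled points passed at an adjusted p under 0.05. With the 10 libraries the intervals of HSPA5 and CALR are narrower and their estimates larger, at 0.50 against 0.46 and at 0.35 against 0.24. In that fit 18 genes pass, while 5.63% of all genes are called higher, against 0.821% with all libraries.

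GC content moves with this result. BPS2 replicates 2, 3 and 4 shared the sign of the GC trend with the 2 libraries left out, while BPS2 replicate 1 had rho of -0.16, within the range of the other control and BPS1 libraries. In the fit without those 2 libraries, the GC trend of each library was also removed, an alternative chosen after seeing the data. Higher than control with BPS2 were 7 of 22 ATF4 and 8 of 13 ER arm genes with a GC value (5.09% of all genes). Against BPS1 they were 10 of 22 and 9 of 13 (9.67%). With all libraries kept and the GC trend removed, 4 of 22 and 1 of 13 were called higher against control (1.02% of all genes). Against BPS1 they were then 5 of 22 and 0 of 13 (2.79%). The median transcript GC content was 55.6% in the ATF4 arm and 50.1% in the ER arm, beside 50.0% over protein-coding genes tested. Any further part of GC content was not tested.

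**Figure D5:**
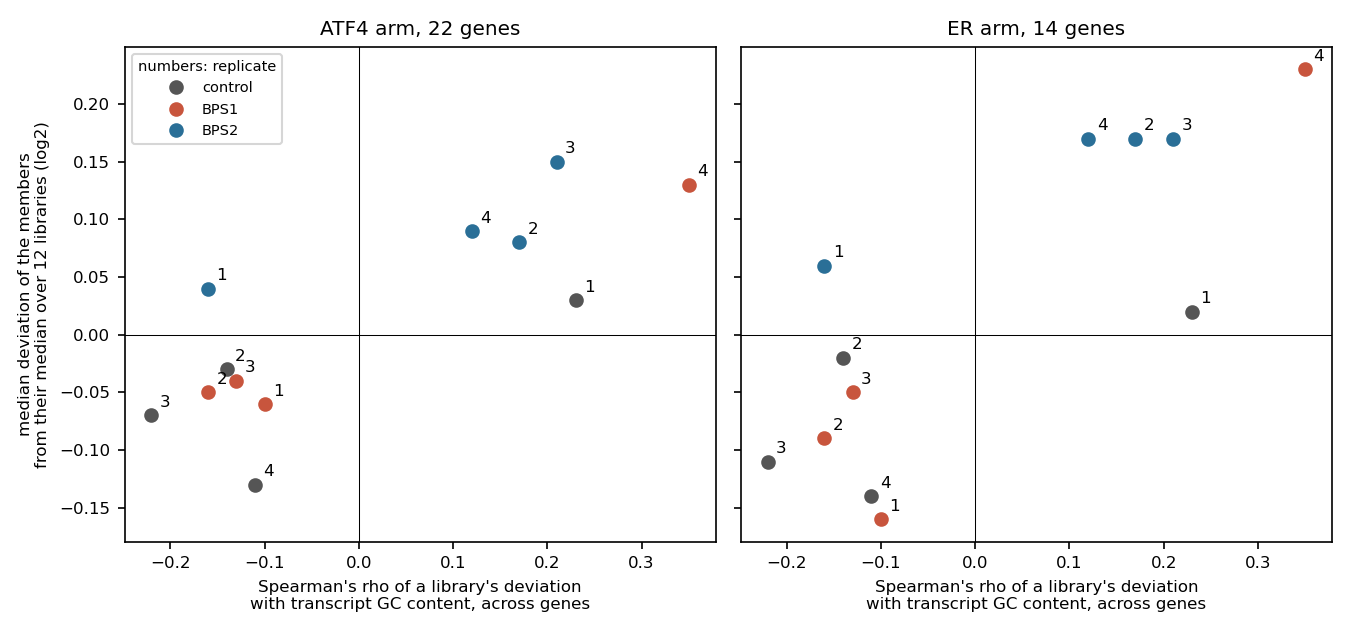
Median deviation of the genes of each arm from their median over the 12 libraries (y axis, log2) against the GC trend of the library (x axis, Spearman's rho across genes). Points are libraries, coloured by group and numbered by replicate. BPS1 replicate 4 has the largest rho, 0.35, and the highest ER arm median, 0.23. BPS2 replicate 1 lies at -0.16 and 0.06.

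Other genes of these pathways were taken from 9 lists of 152 genes in all, none of them among the 36, of which 148 were tested. With BPS1 7 rose and 7 fell, a share near that of all genes (4.29% and 4.32%). With BPS2 2 rose and 0 fell, against 0.821% and 0.386% of all genes. Between BPS2 and BPS1 8 were higher and 1 lower, against 2.30% and 1.63%, and 6 of these 9 calls were lost in at least 1 single omission. These counts and the calls named below are from all libraries unless stated. Without control replicate 1 and BPS1 replicate 4, 17 rose and 15 fell with BPS1, against 6.34% and 7.22% of all genes. With BPS2 19 rose and 5 fell, against 1152 and 758 of all 20454 genes. Between BPS2 and BPS1 32 were then higher and 14 lower, against 2107 and 1392 of all genes. Among the sensors and transducers, EIF2S1, which encodes eIF2 alpha itself, rose from 4380 ± 402 to 5983 ± 733 (SD, n = 4) with BPS1 (log2 0.45 ± 0.09, adjusted p = 0.00737). ATF6 fell with BPS1 from 2650 ± 192 to 2102 ± 35.7 and was at 2662 ± 112 with BPS2. Its relative ATF6B fell with BPS1 by 0.30 on the log2 scale. Of the 12 tRNA synthetase genes that ATF4 is known to activate, 0 were called in any of the 3 comparisons with all libraries (medians of -0.06, 0.02 and 0.08).

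Of 15 further stress targets of ATF4 and DDIT3, 2 rose with each oligonucleotide, against 4.29% of all genes with BPS1 and 0.821% with BPS2. GDF15, a secreted stress cytokine, rose from 30.2 ± 8.80 to 65.6 ± 26.5 with BPS1 (adjusted p = 0.0380) and to 88.9 ± 8.80 with BPS2 (adjusted p = 0.0172). VEGFA, the vascular growth factor, rose with BPS1 (log2 0.34 ± 0.07, adjusted p = 0.00621), and SQSTM1, the autophagy receptor p62, with BPS2 from 2722 ± 113 to 4341 ± 274 (adjusted p = 0.00748). The amino acid and folate genes gave 1 call of 20 with BPS1, the cytosolic folate enzyme MTHFD1 (log2 0.21), and the other cytosolic synthetases gave DARS higher and VARS lower (0.28 and -0.64).

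Of 19 further ER folding genes tested, the oxidase ERO1B and the glucosyltransferase UGGT1 fell with BPS1 (log2 -0.93 and -0.49), and 0 passed with BPS2. In the fit of 10 libraries 1 of them, UGGT1, fell with BPS1, against 7.22% of all genes. In that fit 3 rose with BPS2, against 5.63%. FAM8A1 of the degradation list fell with BPS1 (-0.32). In the import and export list SEC31A and SAR1B, parts of the coat of vesicles that leave the ER, rose with BPS1 (0.27 and 0.37) and SEC24C fell (-0.24). The mitochondrial protein stress genes gave 0 calls against control with all libraries. In the fit of 10 libraries 2 of the 9 tested rose and 1 fell with BPS1, against 6.34% and 7.22% of all genes. In that fit 3 rose with BPS2, against 5.63%. Of the 14 BPS1 calls, those of EIF2S1, ATF6, VEGFA and VARS held in 12 of 12 single omissions and the other 10 did not. With BPS2 that of SQSTM1 held and that of GDF15 did not, with an adjusted p of up to 0.0705. DELE1, which relays mitochondrial stress, was not analysed here.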

How the data were processed

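The authors deposited a gene-level signal, the normalized count, with 1 column per library. FastQC 0.11.7, Salmon 0.8.2, DESeq2 and GRCh38 are named per the submitters' processing notes. No source used here gives the annotation release or how transcripts were summed to genes. Whole reads were not recovered: 23.1% of genes tested were whole multiples of the value of 1 read in all 12 libraries (tolerance 0.02 of a read), and 3 of the 36 genes were. No count model was therefore used.

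Genes with a value of at least 10 in 4 libraries or more were tested on log2(value + 1), a scale that understates the change of low genes. A single limma fit (limma 3.58.1 in R 4.3.3, with a mean-variance trend) covered the 12 libraries, with no term other than group. The threshold was a p under 0.05 from the two-sided test after Benjamini-Hochberg adjustment across 20454 genes. Every adjusted p in the text is of this kind. The fit was tested on simulated data.

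The 36 genes, the pathway lists and the tests were chosen with earlier results of these data known. Values of every library are given for genes that passed in any comparison, for ATF4, DDIT3, XBP1 and HSPA5, and for the 4 genes of smallest p per arm and comparison with control. EDEM1, SEL1L, CALR and CEBPG were described in part after their values were seen. One further adrenergic marker is not reported here. Gene lengths, GC content and overlaps come from GENCODE release 29 on GRCh38, and promoters come from RefSeq. That release may not be the authors' release and held 53405 of the gene identifiers. Overlapping tested genes or named pseudogenes were also present for ATF5, SHMT2, CEBPB, XBP1, HSP90B1, PDIA6 and CRELD2.

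Alternatives were other pseudocounts, filters, scalings, a GC correction, weights per library, a block for the replicate number, fits of the compared groups alone and the omission of libraries. For each comparison the single omissions include libraries of the group not compared. These leave the fold change unmoved and change only the spread and the adjustment.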

Additional observations from a re-analysis of the deposited data

Results flagged for a closer look

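Among the 108 groups of 4 libraries examined (36 genes in 3 groups), 13 had a highest or lowest library whose gap to the nearest other, divided by the group's range, exceeded Dixon's 95% critical value for 4 values. Chance alone flags about 1 group in 20.

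BPS1 replicate 4 accounted for 8 of the 13, each as the highest BPS1 library. It held 14428 for ATF4 against 9564 to 10073 in the other BPS1 libraries, 10042 for PHGDH against 7227 to 7512, 465 for CEBPB against 304 to 326 and 2498 for CEBPG against 2215 to 2257. Among the ER genes it held 24707 for CALR against 15298 to 16406, 7523 for PDIA4 against 5781 to 6067, 13534 for PDIA6 against 10957 to 11248 and 2346 for MANF against 1500 to 1509.

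Control replicate 1 was far above the other control libraries for SESN2, at 766 against 648 to 656, and for SDF2L1, at 677 against 594 to 605. Control replicate 2 held 469 for ATF3 against 375 to 384. BPS2 replicate 1 was low for DDIT4, at 1250 against 1493 to 1530. BPS2 replicate 3 was high for PSAT1, at 2545 against 2345 to 2375.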

How the results depend on the processing

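Counts here are genes called in either direction at an adjusted p under 0.05, in the order BPS1 and then BPS2 against control, followed by BPS2 against BPS1. The fit of all libraries called 1760, 247 and 803 genes, 4, 2 and 4 ATF4 arm genes and 0, 1 and 0 ER arm genes. Library weights gave 3382, 1296 and 3626 genes, with 9 and 10 ATF4 arm genes in the BPS2 comparisons and 1, 5 and 9 ER arm genes. Without control replicate 1 and BPS1 replicate 4 they were 2774, 1910 and 3499, with 9 and 10 ATF4 arm and 1, 9 and 9 ER arm genes. Adding the GC correction to that omission, chosen after seeing the data, gave 2822, 1695 and 3313, with 7 and 10 ATF4 arm and 1, 8 and 9 ER arm genes. The GC correction alone called 293 of 19796 genes for BPS2 against control, with 4 ATF4 arm genes and 1 ER arm gene. Quantile scaling called 1850 and 896 genes for BPS1 against control and BPS2 against BPS1, with 1 and 2 ER arm genes. No filter called 1267 and 182 of 44355 genes against control, with 2 and 1 ATF4 arm genes and, with BPS2, 0 ER arm genes. A minimum of 50 called 273 of 14307 genes for BPS2 against control, with 2 ER arm genes. Fits of only the groups compared gave 907 genes and 2 ATF4 arm genes for BPS1 against control. For BPS2 against control they gave 328 genes, with 4 ATF4 and 2 ER arm genes.

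Omitting 1 library gave 1102 to 2372, 114 to 536 and 477 to 1764 genes, 2 to 6, 1 to 4 and 3 to 8 ATF4 arm genes, and 0 to 1, 0 to 2 and 0 to 5 ER arm genes. The highest counts came without BPS1 replicate 4.

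Same-numbered libraries did not deviate together (correlations of -0.272 to 0.103, of which 1 of 12 exceeded 0.1). The 2 libraries that stand apart weigh on such values, with 0.424 between control replicate 1 and BPS1 replicate 4. Whether the numbers pair the samples cannot be told from these correlations, which a smaller shared effect might not move. With the replicate number as a block, 1067, 118 and 447 genes passed, with 2 ATF4 arm genes for BPS1 against control and 0 ER arm genes for BPS2 against control.

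Of 2583 values of the 36 genes recomputed over 24 alternatives, 2408 kept their side of the threshold, 50 lost it, 125 gained it and 0 turned direction while called. Signs changed in 94 values that passed in neither fit. The cause of these differences was not tested. NUPR1, at under 30 counts in each library, is limited by depth.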
